A study of Mus musculus with 20 samples.

Results

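The regulators described here are 10 genes that set or mark epithelial identity: Grhl1, Grhl2, Grhl3, Ovol1, Ovol2, Elf3, Ehf, Esrp1, Esrp2 and Gata3. They were taken by gene name from a deposited table of 54986 genes, and each name had 1 row. RNA was sequenced from 10 conditions of NMuMG, a mouse mammary gland epithelial cell line, in 2 libraries per condition and 20 in all. The conditions were untreated NMuMG, NMuMG treated with TGFbeta, NMuMG silenced for hnRNP E1 (Pcbp1) by shRNA (E1KD), and the lines recovered from the primary tumor (M1P) and from the lung metastases (L1P) that E1KD cells formed in NOD/SCID mice. The others were NMuMG with an empty vector, clones 12 and 16 of NMuMG overexpressing the lincRNA Platr18, and E1KD cells carrying a scrambled shRNA (E1KD SCR) or an shRNA against Platr18 (E1KD Platr18 KD). All M1P, L1P, E1KD SCR and E1KD Platr18 KD cells thus also carry the hnRNP E1 shRNA, and each Platr18 overexpressing condition is 1 clone. M1P and L1P were selected with puromycin and grown in culture before RNA was taken.

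Grainyhead-like factors (Grhl) and the zinc-finger repressors Ovol1 and Ovol2 are known to hold up junction genes and to oppose the Zeb repressors in epithelia. Elf3 and Ehf are ETS factors of epithelial tissue, Esrp1 and Esrp2 are splicing factors that select epithelial exons, and Gata3 is a zinc-finger factor needed by luminal cells of the mammary gland. In an epithelial-mesenchymal transition (EMT) such genes are often turned down, while the Snai, Zeb and Twist repressors are turned up.

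Values are read counts scaled to the library total (CPM). The libraries fall into 2 kinds that the labels do not name. In NMuMG, TGFbeta, E1KD, M1P and L1P (the first kind) reads of mt-Rnr2, an rRNA of mitochondria, made up 333 to 492 CPM, and in the other conditions (the second kind) 113874 to 165149 CPM. Conditions were therefore compared within a kind only. Libraries of the first kind were scaled from 50802940 to 60026532 reads, and 3 reads are worth 0.05 to 0.0591 CPM there. Those of the second kind were scaled from 62958020 to 147331821 reads, as read from the steps between low values, and 3 reads are worth 0.0204 to 0.0477 CPM. Pcbp1 had 287 and 312 CPM in NMuMG against 16.6 and 14.2 CPM in E1KD, and 32.3 CPM in both empty vector libraries against 3.28 and 3.46 CPM in E1KD SCR. Platr18, listed as Lncenc1, had 813 to 3096 CPM in the clones, 3.06 and 3.68 CPM with the empty vector, 2.92 and 3.10 CPM in E1KD SCR, and 0.136 and 0.170 CPM after its silencing. In the first kind of library it had 1.24 and 1.45 CPM in NMuMG and 17.9 and 14.6 CPM in E1KD, so E1KD was above its control for Platr18 and E1KD SCR was not. Of 6 epithelial markers, Krt8, Krt18, Krt19 and Cdh1 reached 1 CPM in every condition, while Epcam and Cldn7 stayed under 1 CPM in all 20 libraries. All 4 endothelial, 4 T cell and 5 lung epithelial markers were under 1 CPM in every condition. Of 5 macrophage and leukocyte markers, Cd68 and Cd14 reached 1 CPM in every condition, Csf1r in 5 of the 10, and Ptprc and Adgre1 in none. That list summed to 40.5 to 41.9 CPM with TGFbeta, 84.3 to 104 CPM in the other conditions of the first kind, and 54.3 to 90.1 CPM in the second, and its part in the results was not tested. E1KD replicate 1 stood apart from its partner: its CPM sum to 728651 against 567414, and the median log2 ratio of replicate 1 to replicate 2 was 0.29 over the tested genes. The regulators' differences between E1KD and NMuMG are therefore also given for other scalings. The median-of-ratios scaling factors of the TGFbeta libraries were 0.856 and 0.913, against 0.987 and 0.989 in NMuMG. Differences between TGFbeta and NMuMG are given for the deposited scaling only, so their sizes may depend on it. The median log2 fold change of all tested genes was 0.17 in E1KD against NMuMG, and 0.024 or 0.037 after median-of-ratios or equal-sum scaling. For E1KD against TGFbeta it was 0.26, and 0.023 or 0.13 after those scalings.

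Differences were tested with limma on log2(CPM + 1), a scale that understates changes of low genes. A gene was called if its unadjusted p was under 0.001 and its log2 fold change was 1 or more in size (the fold limit), and adjusted p-values are Benjamini-Hochberg values over all 17106 tested genes. An exact permutation test of 2 against 2 libraries cannot go below p = 0.333. Nothing in the labels says that 2 libraries of a condition came from separate cultures, so the p-values measure the spread between these libraries, which may be technical. In RNA from a whole culture, fewer cells that use a gene and less RNA per cell cannot be told apart.

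Of the 10 regulators, 5 had at least 1 CPM in at least 2 libraries and were tested: Ehf, Elf3, Esrp2, Grhl1 and Gata3. The other 5, Grhl2, Grhl3, Ovol1, Ovol2 and Esrp1, were under 1 CPM in all 20 libraries, untreated NMuMG included. Per kilobase of merged exon, the levels in NMuMG were 8.97 CPM for Ehf, 8.41 for Esrp2, 5.44 for Elf3, 0.335 for Grhl1 and 0.0848 for Gata3. With the empty vector they were 6.87 CPM per kilobase for Esrp2, 4.89 for Elf3, 3.70 for Ehf, 0.553 for Grhl1 and 0.0896 for Gata3. In NMuMG itself Grhl1, Esrp2, Elf3 and Ehf were above 1 CPM, so 1 of 3 Grhl genes, 1 of 2 Esrp genes and both ETS factors were, and neither Ovol gene.

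**Figure D1:**
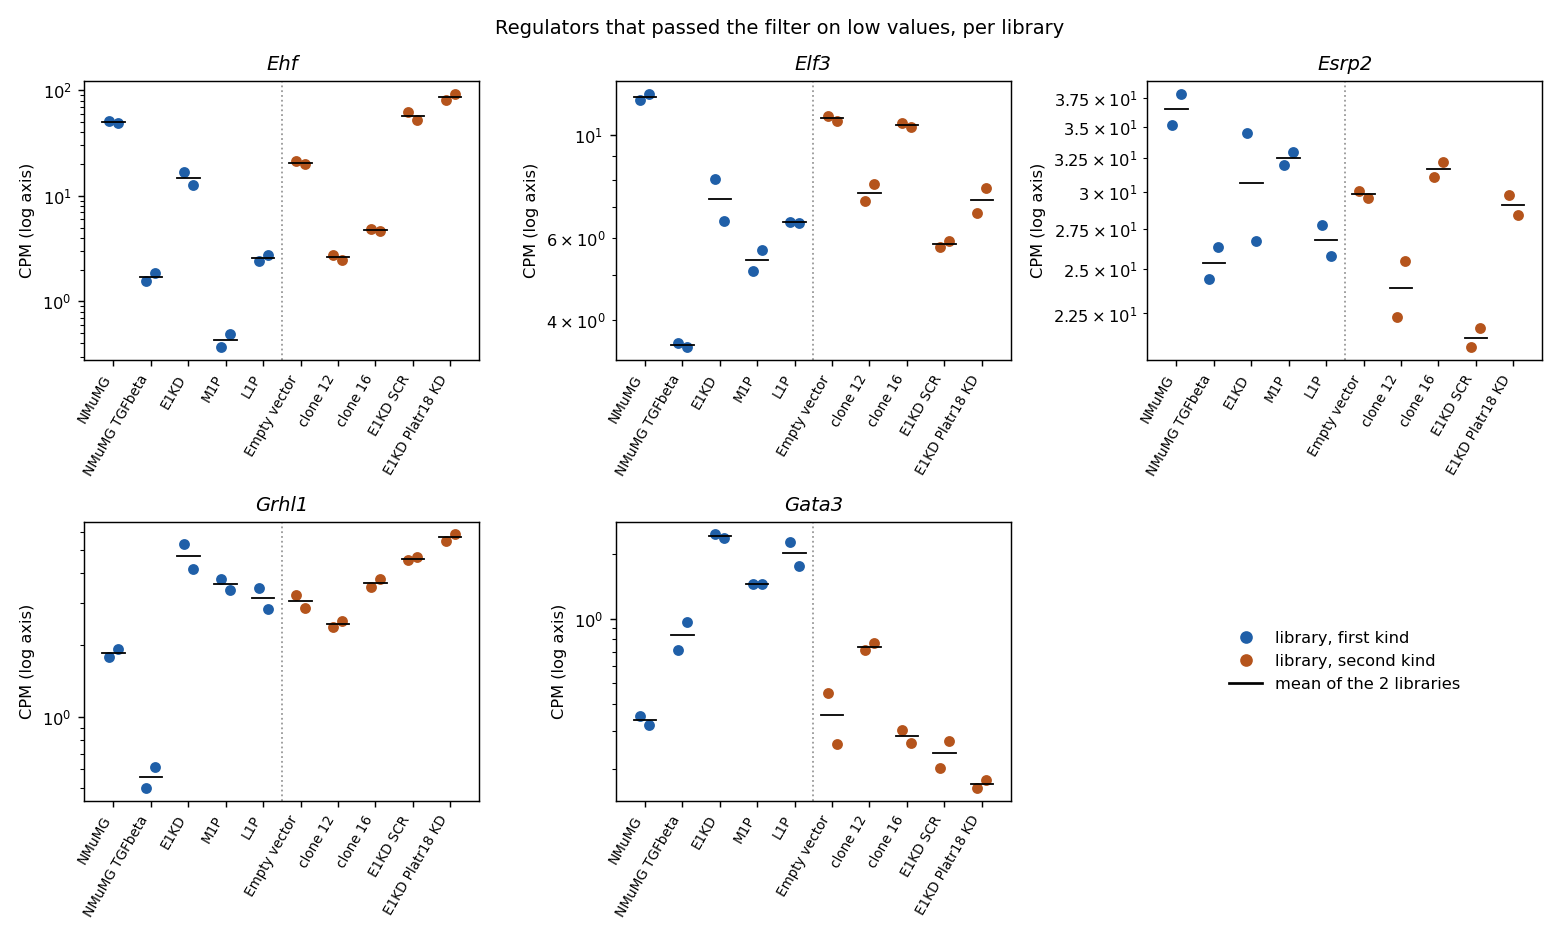
CPM on a log axis of the 5 regulators that were tested, 2 points (libraries) and a line (mean) for each condition, with the kinds of library separated by a dotted line and an axis of its own for each gene. Ehf spans 0.367 to 92.8 CPM, while Esrp2 stays between 20.8 and 37.8 CPM.

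Ehf (ENSMUSG00000012350.15, GRCm38 chr2:103263433-103303278, minus strand) had the widest range of the 10. In the first kind of library its level was 51.2 and 48.9 CPM in NMuMG and 16.99 and 12.6 CPM in E1KD. It was 2.39 and 2.78 CPM in L1P, 1.55 and 1.85 CPM with TGFbeta, and 0.367 and 0.496 CPM in M1P, which are 21 and 28 reads. No 2 of these conditions overlapped, and NMuMG was the highest of the 5. In the second kind the empty vector libraries had 21.2 and 20.1 CPM, clone 12 had 2.76 and 2.45 CPM, and clone 16 had 4.88 and 4.64 CPM. E1KD SCR had 62.5 and 52.9 CPM and E1KD Platr18 KD had 81.3 and 92.8 CPM. Again no 2 conditions overlapped, but here the hnRNP E1-silenced cells were above the control and not below it.

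Mean Ehf was 29.4-fold lower with TGFbeta than in NMuMG, which on the log2 scale is -4.24 (standard error 0.126, adjusted p = 1.36e-12 by limma). It was 3.38-fold lower in E1KD than in NMuMG, at -1.70 (standard error 0.126, adjusted p = 4.30e-08 by limma), and the direct comparison of E1KD with TGFbeta gave 2.54 (adjusted p = 2.63e-10 by limma). Between E1KD and the tumor line M1P it fell by 3.45 on the log2 scale (34.3-fold lower mean, adjusted p = 4.78e-11 by limma). From M1P to the metastasis line L1P it rose by 1.32 (5.99-fold, adjusted p = 4.47e-06 by limma), and L1P remained 19.4-fold below NMuMG at -3.83 (adjusted p = 3.29e-12 by limma). After median-of-ratios or equal-sum scaling the Ehf value was -1.90 or -1.88 in E1KD against NMuMG, 2.25 or 2.38 against TGFbeta, and -3.27 or -3.31 for M1P against E1KD. In a fit of the E1KD and NMuMG libraries alone Ehf was not called between them, with the same fold change and an adjusted p of 0.0217 by limma.

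In the second kind of library, Ehf was 5.61-fold lower in the Platr18 clones together than with the empty vector, at -2.25 (standard error 0.109, adjusted p = 2.43e-09 by limma). Each clone was called on its own, clone 12 at -2.59 (7.92-fold lower) and clone 16 at -1.91 (4.34-fold lower). Clone 16 was above clone 12 by 0.67, under the fold limit (adjusted p = 0.000596 by limma). E1KD SCR was 2.79-fold above the empty vector, at 1.43 (standard error 0.126, adjusted p = 4.16e-07 by limma). Platr18 silencing in E1KD gave a further 0.59 (1.51-fold, adjusted p = 0.00422 by limma), which is also under the fold limit. The response of Ehf to hnRNP E1 silencing therefore went down in one kind of library and up in the other, and the difference between the responses was -3.14 (standard error 0.178, adjusted p = 1.89e-08 by limma). The pairs of lines also differ in vector, in the kind of library and in Platr18, which was higher in E1KD but not in E1KD SCR, and these cannot be told apart.

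Elf3 (ENSMUSG00000003051.13, GRCm38 chr1:135253575-135258568, minus strand), an ETS factor first known from skin and gut epithelium, moved less. It had 11.9 and 12.2 CPM in NMuMG, 3.57 and 3.49 CPM with TGFbeta, and 8.01 and 6.53 CPM in E1KD. M1P had 5.09 and 5.65 CPM and L1P had 6.50 and 6.47 CPM. NMuMG was the highest condition, TGFbeta the lowest, and no condition overlapped another. With TGFbeta mean Elf3 was 3.42-fold lower, at -1.53 (standard error 0.0892, adjusted p = 2.19e-09 by limma). The differences of -0.67 in E1KD (adjusted p = 2.17e-05 by limma) and -0.80 in L1P against NMuMG (adjusted p = 2.84e-06 by limma) were under the fold limit. In E1KD it was -0.85 or -0.83 after the other scalings.

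In the second kind of library Elf3 was highest with the empty vector, at 10.96 and 10.7 CPM, followed by clone 16 at 10.6 and 10.4 CPM. Clone 12 had 7.19 and 7.82 CPM, E1KD Platr18 KD had 6.79 and 7.68 CPM, and E1KD SCR had 5.73 and 5.91 CPM. The ranges of clone 12 and E1KD Platr18 KD overlapped. E1KD SCR against the empty vector gave -0.80 (adjusted p = 5.38e-06 by limma), under the fold limit. The 95% interval of clone 16 against the empty vector ran from -0.24 to 0.15 for Elf3. Elf3 overlaps the antisense gene RP24-387G4.3, which reached 4.61 CPM, and since no source states that strand was used in counting, reads of the 2 genes may be mixed. Elf3 read numbers were not whole in the first kind of library (649.479 in NMuMG replicate 2) and were whole in the second.

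Promoter sequences were given by RefSeq (GRCm38.p6) for 5 of the 10 regulators, in 6 entries, and the 250 bases before the start were searched on both strands. The E-box CACCTG, the letters that Snai and Zeb repressors are known to bind, was found in 2 of the 6 entries, those of Elf3 and Grhl3, and in 17.2% of all 32851 windows of that length. Shown are the windows of Elf3 and Grhl3, which hold the E-box, and the first of 2 Grhl1 windows, which does not. The second Grhl1 window and those of Gata3 and Ovol2, which had no read in any library, hold none either and are not shown. The windows shown lie at chr1:135258473-135258722 (minus strand), chr12:24572037-24572286 (plus strand) and chr4:135573633-135573882 (minus strand), and capitals mark the E-box.
Elf3: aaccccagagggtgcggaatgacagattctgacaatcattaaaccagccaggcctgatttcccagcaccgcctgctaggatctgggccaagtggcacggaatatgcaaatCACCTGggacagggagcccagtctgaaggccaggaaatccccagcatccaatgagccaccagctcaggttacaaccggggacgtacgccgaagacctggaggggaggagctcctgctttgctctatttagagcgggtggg
Grhl1: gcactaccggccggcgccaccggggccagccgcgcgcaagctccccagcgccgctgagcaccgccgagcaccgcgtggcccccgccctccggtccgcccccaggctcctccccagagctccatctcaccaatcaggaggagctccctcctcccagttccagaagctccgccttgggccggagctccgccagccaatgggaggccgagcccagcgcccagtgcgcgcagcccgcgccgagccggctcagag
Grhl3: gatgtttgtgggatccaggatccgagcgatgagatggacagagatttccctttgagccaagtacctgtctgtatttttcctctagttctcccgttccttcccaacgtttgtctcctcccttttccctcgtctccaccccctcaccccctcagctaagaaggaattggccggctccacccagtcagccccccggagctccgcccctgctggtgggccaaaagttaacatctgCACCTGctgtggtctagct
In Elf3 the E-box begins 140 bases before the start, and in Grhl3 it begins 19 bases before it. This Grhl1 window holds no CACCTG, and 75.6% of its bases are G or C against a median of 52.4% over all windows. The letters AACCGGTT and AACNNGTT (forms of the Grhl site), CCGTTA (a form of the Ovol site) and CGGAAG (a longer form of the ETS site) were found in none of the 6 entries. They occur in 0.116%, 3.64%, 2.18% and 13.6% of all windows. Only these exact letters were searched, and shorter ETS letters such as GGAA, which the Elf3 window holds, were not counted. A match is a description of letters and was not tested as a binding site.

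Grhl1 (ENSMUSG00000020656.16, GRCm38 chr12:24572283-24617391, plus strand), a factor that supports desmosomal adhesion in epidermis, was the only Grhl gene above 1 CPM. It had 1.79 and 1.92 CPM in NMuMG, 0.501 and 0.616 CPM with TGFbeta, and 5.30 and 4.19 CPM in E1KD. M1P had 3.81 and 3.40 CPM and L1P had 3.47 and 2.83 CPM, whose ranges overlapped. E1KD was the highest condition and TGFbeta the lowest, on either side of NMuMG. The E1KD mean was 2.56-fold above NMuMG, at 1.00 on the log2 scale (standard error 0.101, adjusted p = 1.25e-06 by limma), which lies on the fold limit. With median-of-ratios or equal-sum scaling it was 0.84 or 0.86, and without E1KD replicate 1 or NMuMG replicate 1 it was also not called, with values between 0.86 and 1.14 over the libraries left out. With TGFbeta the mean was 3.32-fold lower, at -0.87 (adjusted p = 3.78e-06 by limma), under the fold limit, and with pseudocount 0.1 it was called at -1.57. The direct difference between E1KD and TGFbeta was called, at 1.88 (standard error 0.101, adjusted p = 6.60e-10 by limma), and stayed so after the other scalings at 1.66 or 1.74.

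In the second kind of library Grhl1 was ordered as E1KD Platr18 KD (5.498 and 5.84 CPM), E1KD SCR (4.57 and 4.67 CPM), clone 16 (3.51 and 3.80 CPM), empty vector (3.26 and 2.87 CPM) and clone 12 (2.39 and 2.52 CPM). None of these ranges overlapped, and none of the tested differences reached the fold limit. E1KD SCR was 1.51-fold above the empty vector, at 0.47 (adjusted p = 0.00173 by limma).

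Esrp2 (ENSMUSG00000084128.10, GRCm38 chr8:106130319-106136974, minus strand) was the only Esrp gene above 1 CPM and the steadiest of the 5 tested regulators. Its level was 35.1 and 37.8 CPM in NMuMG, 32.0 and 33.0 CPM in M1P, 34.5 and 26.7 CPM in E1KD, 27.7 and 25.8 CPM in L1P, and 24.4 and 26.3 CPM with TGFbeta. The E1KD libraries were so far apart that they overlapped M1P and L1P, and L1P overlapped TGFbeta. In the second kind it was 31.1 and 32.2 CPM in clone 16, 30.1 and 29.6 CPM with the empty vector, 29.8 and 28.4 CPM in E1KD Platr18 KD, 22.3 and 25.5 CPM in clone 12, and 20.8 and 21.7 CPM in E1KD SCR. The empty vector and E1KD Platr18 KD overlapped.

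No comparison of Esrp2 was called. As deposited, the differences of largest size were -0.51 with TGFbeta (95% interval -0.72 to -0.29, adjusted p = 0.000546 by limma) and -0.47 in E1KD SCR against the empty vector (95% interval -0.69 to -0.26, adjusted p = 0.00156 by limma). Platr18 silencing in E1KD gave 0.44 (95% interval 0.22 to 0.65, adjusted p = 0.00663 by limma). In E1KD against NMuMG it was -0.26 as deposited (adjusted p = 0.0412 by limma) and -0.46 or -0.43 after the other scalings. The difference between E1KD and TGFbeta was 0.25 as deposited, 0.069 with equal sums and -0.10 with median-of-ratios scaling, so its direction depended on the scaling. Esrp2 overlaps Nfatc3 on the other strand, which reached 78.8 CPM, and AC133195.2 at up to 5.70 CPM, and their reads may be mixed if strand was not used. Esrp2 read numbers were not whole in the first kind of library (1985.82 in NMuMG replicate 1) and were whole in the second.

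Gata3 (ENSMUSG00000015619.10, GRCm38 chr2:9857078-9890034, minus strand) reached 1 CPM in 6 libraries, those of E1KD, M1P and L1P, and passed the filter only through them, so that some difference between these lines and the rest was built into its being tested. It had 0.354 and 0.321 CPM in NMuMG, which are 20 and 17 reads, and 2.46 and 2.37 CPM in E1KD. TGFbeta had 0.718 and 0.966 CPM, M1P 1.449 and 1.453 CPM, and L1P 2.28 and 1.75 CPM. No 2 of these conditions overlapped, and NMuMG was the lowest. The E1KD mean was 7.15-fold above NMuMG, at 1.35 (standard error 0.0867, adjusted p = 9.16e-09 by limma), and L1P was 5.96-fold above it, at 1.17 (adjusted p = 3.65e-08 by limma). The E1KD value was 1.22 or 1.24 after the other scalings. With TGFbeta Gata3 was 2.50-fold above NMuMG, at 0.46 (adjusted p = 0.000395 by limma), under the fold limit, and with pseudocount 0.1 it was called at 1.10.

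In the second kind of library Gata3 stayed under 1 CPM in all 10 libraries. Clone 12 had 0.713 and 0.767 CPM, the empty vector 0.452 and 0.261 CPM, clone 16 0.305 and 0.265 CPM, E1KD SCR 0.203 and 0.270 CPM, and E1KD Platr18 KD 0.163 and 0.177 CPM. The empty vector overlapped clone 16 and E1KD SCR, and clone 16 also overlapped E1KD SCR. E1KD SCR against the empty vector gave -0.13 (95% interval -0.32 to 0.056, adjusted p = 0.256 by limma). From a level under 1 CPM a fall of 1 is not possible on this scale, so Gata3 could not be called lower there. With pseudocount 0.1 the value was -0.41 and was not called. The response of Gata3 to hnRNP E1 silencing differed between the kinds of library by 1.48 (standard error 0.123, adjusted p = 8.46e-07 by limma). The filter favoured such a difference, since it kept Gata3 for its E1KD, M1P and L1P libraries alone, and in the fit with no filter on low values the adjusted p was 1.27e-05 by limma. The 4 T cell markers, which belong to another cell type that uses Gata3, summed to at most 0.122 CPM in any library.

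**Figure D2:**
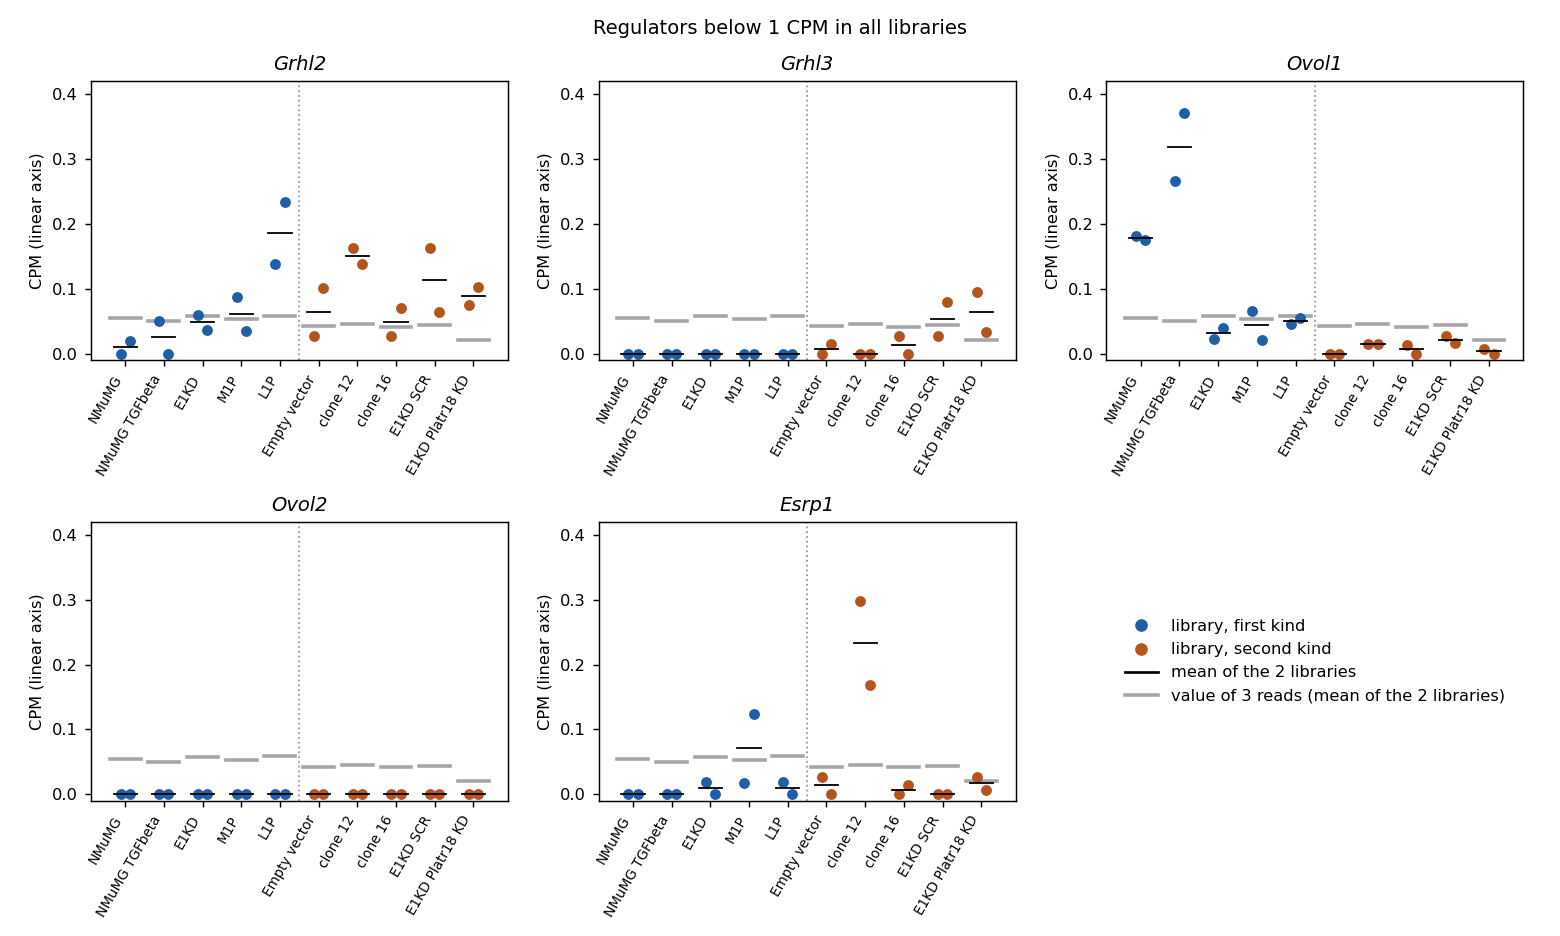
CPM on a linear axis of the 5 regulators under 1 CPM in all libraries, 2 points (libraries) and a line (mean) per condition, with a grey bar at the value of 3 reads. Both points of Ovol1 lie above the bar in NMuMG and TGFbeta, and both of Esrp1 in clone 12. M1P replicate 1 of Ovol1 and M1P replicate 2 of Esrp1 also lie above it, and Ovol2 is at 0 throughout.

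Among the regulators with few reads, Ovol2, a repressor of Zeb1, had no read in any of the 20 libraries, so up to 0.0591 CPM, the value of 3 reads in the shallowest library, could be missed. Grhl3 had no read in any library of the first kind and at most 14 reads, or 0.0950 CPM, in E1KD Platr18 KD. Grhl2, the Grhl gene best known for holding up E-cadherin, had 0 and 1 reads in NMuMG, 3 and 0 with TGFbeta, 3 and 2 in E1KD, 5 and 2 in M1P, and 7 and 12 in L1P. The L1P libraries, at 0.137 and 0.233 CPM, were its highest of the first kind, and libraries of the second kind had 2 to 15 reads (0.0274 to 0.163 CPM). Esrp1 had no read in either NMuMG library or either TGFbeta library. Its highest level was in clone 12, at 20 and 11 reads (0.297 and 0.169 CPM), against 2 and 0 reads with the empty vector and 0 and 1 reads in clone 16. M1P had 1 and 7 reads of Esrp1 (0.0175 and 0.124 CPM). Differences between counts this small may be counting error, and no interval is given for them.

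Ovol1, the other Ovol repressor, had 10.2 and 9.28 reads in NMuMG (0.181 and 0.175 CPM), 15.9 and 22.3 reads with TGFbeta (0.266 and 0.371 CPM), and 1.15 and 2.18 reads in E1KD. M1P and L1P had 1.22 to 3.77 reads, and no library of the second kind had more than 2. In a fit with no filter on low values, Ovol1 had log2 fold changes of -0.19 in E1KD (adjusted p = 0.000229 by limma) and 0.16 with TGFbeta (adjusted p = 0.000754 by limma). Both are far under the fold limit on this scale, and their signs are opposite. The E1KD libraries are under 3 reads, so the E1KD difference could not be measured at these depths and its p is not read as a response. Ovol1 overlaps the pseudogene RP23-389K5.5, which reached 1.36 CPM. Its read numbers are not whole in the first kind of library, though they are in the second, so its level in the first kind is uncertain.

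Counted by comparison, the regulators called were 3 in E1KD against NMuMG (Grhl1 and Gata3 higher, Ehf lower, with the limit on Gata3 given above), where 9.44% of all tested genes were called. With TGFbeta they were 2 (Ehf and Elf3, both lower), where 13.5% of all tested genes were called. For E1KD against TGFbeta they were 2 (Ehf and Grhl1, both higher in E1KD), where 23.3% were called. Ehf alone was called between M1P and E1KD (3.59% of all genes called) and between L1P and M1P (1.21%), and Ehf and Gata3 were called between L1P and NMuMG (11%). Ehf alone was called for the clones together (1.46%), for clone 12 (3.65%) and clone 16 (1.78%) against the empty vector, and for E1KD SCR against the empty vector (5.98%). For clone 16 against clone 12 no regulator was called by limma, where 4.38% of all genes were, although all 5 had an adjusted and an unadjusted p under 0.05. None was called for E1KD Platr18 KD against E1KD SCR (1.48%), where 3 of the 5 had an adjusted p under 0.05 and 4 had an unadjusted p under 0.05. The difference of the responses between the kinds of library was called for 2 (Ehf and Gata3), against 3.51% of all genes. The limit on Gata3 holds for this count and for that of L1P against NMuMG too. The comparisons with NMuMG share its libraries, and so do those with the empty vector.

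**Figure D3:**
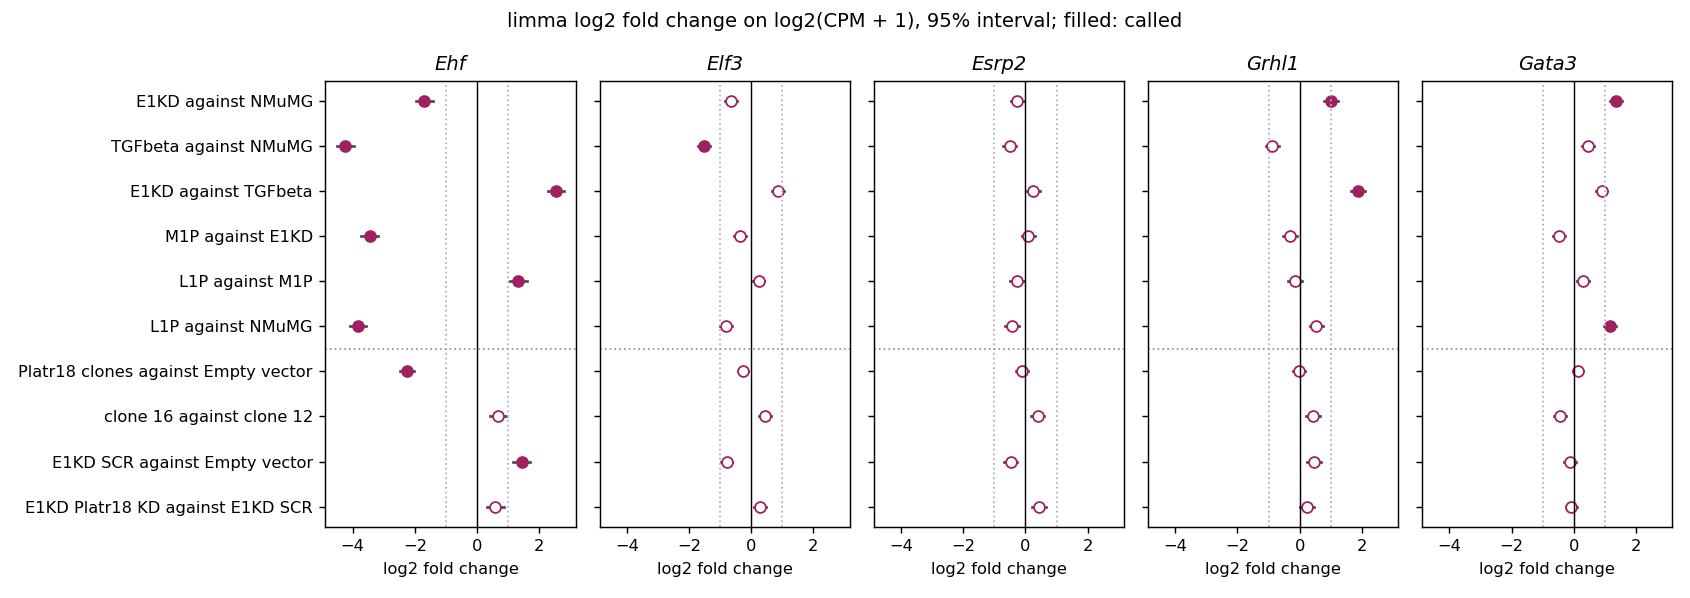
limma log2 fold changes (points, filled where called) with 95% intervals (bars) of the 5 tested regulators in 10 comparisons, first kind of library above the dotted line and second kind below. Ehf is filled in 8 of the 10 rows, in either direction, and Esrp2 in none.

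Across the 10 condition means, centred within each kind of library, the tested regulators did not share 1 pattern. The highest correlation between any 2 was that of Elf3 and Esrp2, at r = 0.78 (0.80 in the first kind and 0.84 in the second). Elf3 and Ehf had r = 0.85 over the 5 conditions of the first kind and -0.46 over those of the second. Grhl1 and Ehf had 0.071 and 0.86. These values describe condition means that share libraries and scaling, and no p was computed.

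By the same measure over the 10 means, the genes most like Ehf were Gmeb2 (r = 0.97), Fam133b (0.97), Bdh1 (0.97), RP24-310D17.9 (0.96) and RP23-176N13.2 (0.95). Of these, Bdh1, a mitochondrial enzyme of ketone body metabolism, spanned 2.51 on the log2 scale, and the other 4 spanned at most 0.52. Those most like Elf3 were Arhgef16 (0.97), AC158114.4 (0.97), Sh2d4a (0.96), RP24-164P4.3 (0.95) and RP24-468F14.2 (0.95). Arhgef16 spanned 1.87 and Sh2d4a 2.26, and the others at most 0.85. Those most like Esrp2 were Zscan4d (0.96), RP24-351P7.3 (0.94), Kat5 (0.94), Prr15l (0.92) and Yif1a (0.91). Prr15l spanned 2.63 and the others at most 0.91. All were picked for the highest r among all tested genes, so a high r was built into the choice.

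Genes around these regulators were read from 4 lists. Of 6 EMT repressors, 5 were tested, and 4 of them rose in E1KD against NMuMG and none fell, with a list median of 1.53 against 0.17 over all genes, of which 6.44% were called higher and 2.99% lower. Twist2 rose from 0.0689 to 4.07 CPM (log2 fold change 2.24), Snai1 from 0.275 to 4.11 CPM (2.00) and Zeb2 from 5.24 to 17.1 CPM (1.53). Twist2 and Snai1 were under 1 CPM in NMuMG, so on this scale neither could be called lower, in E1KD or with TGFbeta. Both passed the filter only through other conditions, so a rise was favoured by their being tested. With TGFbeta 3 of the 5 rose and none fell, with a list median of 1.12 against -0.077 over all genes, of which 5.85% were called higher and 7.66% lower. Zeb2 reached 51.8 CPM (3.08), Snai1 7.78 CPM (2.78), and Zeb1 rose from 22.5 to 50.2 CPM (1.12). In E1KD SCR against the empty vector none of the 5 was called by limma, with a median of 0.21 against 0.024 over all genes, and 3 had an unadjusted p under 0.05.

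Of 15 other epithelial transcription factors, 7 were tested. In E1KD 2 rose and none fell: Tfcp2l1, a grainyhead-related factor of kidney and gland ducts, went from 3.11 to 12.5 CPM (1.72), and Foxa1, a pioneer factor of luminal cells, from 0.311 to 2.13 CPM (1.25). Foxa1 was under 1 CPM in NMuMG, so it could not be called lower on this scale. It passed the filter only through other conditions. With TGFbeta 2 fell and none rose: Klf5 went from 35.3 to 6.95 CPM (-2.19) and Sox9 from 15.8 to 5.79 CPM (-1.31). The list medians were 0.47 in E1KD and -0.24 with TGFbeta, against 0.17 and -0.077 over all genes. Of all genes, 6.44% were called higher and 2.99% lower in E1KD, and 5.85% higher and 7.66% lower with TGFbeta. In E1KD SCR against the empty vector 1 of the 7 was called, Tfcp2l1, which was higher, where 2.91% of all genes were called higher. Foxa1 was not called there. Among those not tested, Elf5, Spdef, Tfap2c, Trp63, Esr1, Pgr and Ovol3 had at most 0.267 CPM in any library.

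Of 25 epithelial junction and surface genes, 14 were tested, and 11, Epcam, Cldn3, Cldn7 and Rab25 among them, had at most 0.3005 CPM. In E1KD 3 fell and none rose, with a list median of -0.36 against 0.17 over all genes, of which 2.99% were called lower and 6.44% higher. Mal2, a protein of apical transport, fell from 14.7 to 0.00924 CPM (-3.96, a value set by the pseudocount, since the E1KD libraries are under the value of 3 reads), the tricellular junction protein Marveld2 from 10.8 to 0.0757 CPM (-3.46), and the protease inhibitor Spint2 from 94.1 to 33.8 CPM (-1.46). With TGFbeta 5 fell and 1 rose, with a list median of -0.93 against -0.077 over all genes, of which 7.66% were called lower and 5.85% higher. Krt19 fell from 485 to 18.1 CPM (-4.67) and Marveld2 to 1.90 CPM (-2.02), while Cldn4 rose from 0.119 to 19.3 CPM (4.18). Cldn4 was under 1 CPM in NMuMG, so it could not be called lower on this scale. It passed the filter only through other conditions. In E1KD SCR against the empty vector 4 fell and none rose, with a median of -0.34, where 3.07% of all genes were called lower. Mal2, Marveld2 and Spint2 thus fell with hnRNP E1 silencing in both kinds of library, whereas Ehf fell in one and rose in the other.

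Of 8 genes with exons that the ESRP proteins are known to set, all were tested at the gene level, which does not show which exon was used. In E1KD none was called by limma, where 9.44% of all tested genes were. The median was 0.17 beside 0.17 over all genes, and 5 had an unadjusted p under 0.05. With TGFbeta 3 rose and 1 fell, with a median of 0.24 against -0.077 over all genes, of which 5.85% were called higher and 7.66% lower. Fgfr2 fell from 14.1 to 1.77 CPM (-2.44), Cd44 rose from 60.6 to 196 CPM (1.68), and Enah rose from 73.2 to 173 CPM (1.23). In the TGFbeta libraries 3 of 6 fibroblast markers (Col1a1, Pdgfra and Pdgfrb) reached 1 CPM and the list summed to 42.9 and 51.6 CPM, against at most 1.68 CPM in the other conditions, and their part in the TGFbeta results was not tested.

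**Figure D4:**
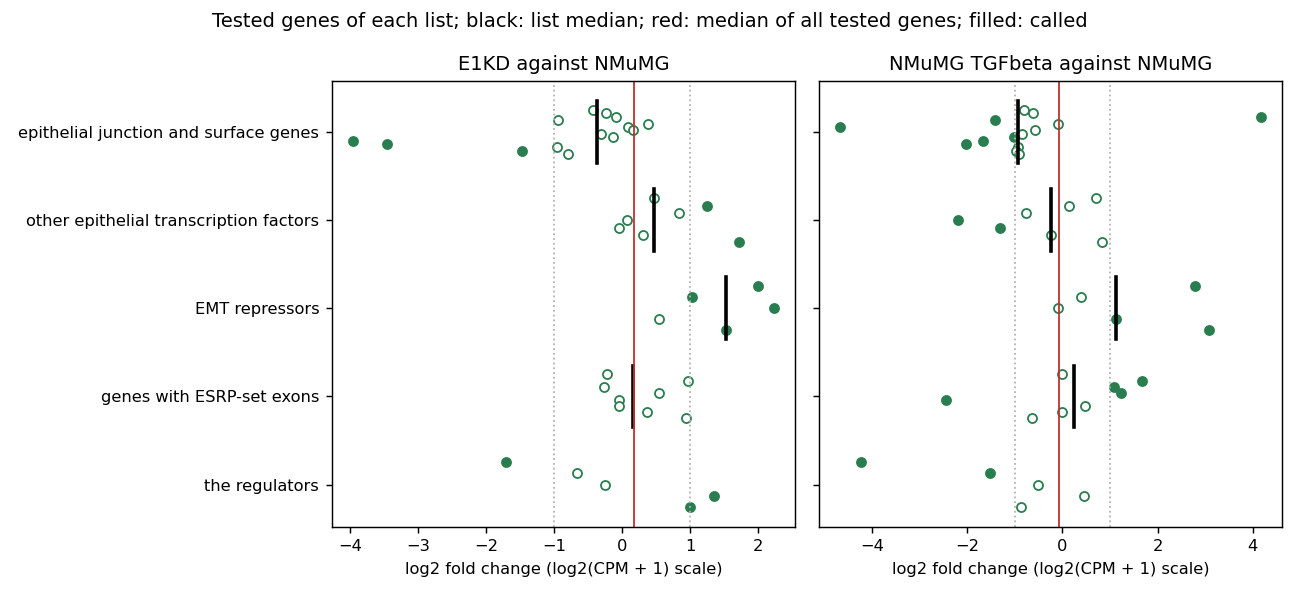
limma log2 fold changes of the tested genes of each list and of the regulators (points, filled where called), with each list's median in black and the median of all tested genes in red, for E1KD and TGFbeta against NMuMG. The called EMT repressors lie right of the red line in both panels, and the regulators lie on both sides of the red line.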

How the data were processed

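RNA-seq was done on 20 libraries of NMuMG-derived cells. Per the study's methods and the processing notes, the authors aligned reads with Bowtie2 (2.2.5) to GRCm38.p6, quantified them against annotation M18 in Partek by expectation maximization, and deposited CPM with 0.0001 added to every value. The labels gave the groups. Low values were whole reads (within 0.05 of a read) for 92.0% to 98.0% of values per library, and no count test was run. The 17106 genes with at least 1 CPM in 2 libraries were fitted on log2(CPM + 1) with limma 3.58.1 (R 4.3.3, trend, 10 condition means, 10 residual degrees of freedom) in place of Partek's test. The scripts were tested on simulated data. Lengths came from GENCODE M21, and gene ends are given 1 base before the deposited stop. The values of 1 list gene are not reported here. Members and lists were chosen with earlier results of these data known. From each list the 3 called genes of largest change in E1KD and with TGFbeta were named, with the 5 genes most like each of the 3 members of highest CPM. Alternatives changed the pseudocount (0.1, 0.5), filter, scaling, samples in the fit, threshold and replicate block. Python 3.11.15 made the tables and figures (matplotlib 3.10.9).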

Additional observations from a re-analysis of the deposited data

Results flagged for a closer look

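The response to hnRNP E1 silencing differed between the kinds of library for 2 of the 5 tested regulators, by a limma contrast of E1KD minus NMuMG against E1KD SCR minus empty vector. For Ehf the difference was -3.14 on the log2 scale (limma, 95% interval -3.52 to -2.76), with every E1KD library below every NMuMG library and every E1KD SCR library above every empty vector library. For Gata3 it was 1.48 (limma, 95% interval 1.22 to 1.75), with an increase in E1KD and no call in E1KD SCR. Gata3 was under 1 CPM with the empty vector, so a call lower in E1KD SCR was not possible on this scale. Gata3 passed the filter on low values only through the lines in which it is high, E1KD among them, so part of this difference was built into its being tested. For both genes it was called with each library left out in turn.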

How the results depend on the processing

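Of 573 log2 fold changes of single regulators under other settings, 531 kept their direction and side of the threshold, 35 passed it newly, 4 no longer passed it and 3 reversed. Only a changed pseudocount or scaling alters the fold change itself, so under the remaining settings a kept direction was fixed in advance. The values that passed newly include those under the setting without a fold limit, which met no fold limit. The reversals were Esrp2 in E1KD against TGFbeta (-0.10 with median-of-ratios scaling) and Elf3 in the difference of responses (-0.015 with that scaling and -0.053 with equal sums). With 1 library left out, 245 of 250 values were kept. Esrp2 in M1P against E1KD ranged from -0.085 to 0.27 and reversed without E1KD replicate 2. Grhl1 in the clones against empty vector ranged from -0.088 to 0.051, reversing without empty vector replicate 1 or clone 16 replicate 1 (0.0040).

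The count of regulators called in E1KD against NMuMG (3) was 1 when a mean of 5 CPM was required, 1 with the compared groups only (Gata3) and 2 with either rescaling. The mean filter also gave 1 for E1KD against TGFbeta, L1P against NMuMG and the difference of responses, since fewer regulators are then tested. Pseudocount 0.1 gave 4 with TGFbeta, 4 for E1KD against TGFbeta and 1 for clone 16 against clone 12. An adjusted p under 0.05 without a fold limit gave 5 for E1KD, TGFbeta, E1KD against TGFbeta, L1P against NMuMG and clone 16 against clone 12, 4 for M1P and E1KD SCR, 3 for E1KD Platr18 KD and 2 for L1P against M1P and for the clones against empty vector. Rescaling moved the median of all genes in E1KD from 0.17 to 0.024 or 0.037.

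The replicate block changed no call and left 3 called in E1KD against NMuMG and 2 with TGFbeta. The deviations of libraries of the same number had correlations from -0.39 (E1KD against TGFbeta) to 0.29 (clone 16 against clone 12). These do not settle whether the numbers pair libraries, and the main fit used no pairing. A fit of one kind of library alone gives no difference of responses. At these depths a gene under 3 reads could not be compared, which holds for Ovol2 everywhere and for Ovol1 in E1KD, among others. With 2 libraries per condition, the spread rests on all 20 libraries.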
